A study of Mus musculus with 6 samples.

Results

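The genes described here are the mouse zinc finger genes whose symbol is Zfp followed by a number, divided into those on chromosome 7 and those on all other chromosomes. The authors' table of TPM (a transcript level: read numbers scaled by transcript length and by library) listed 363 such symbols after Zfp36, an unrelated gene for a protein that destabilizes mRNA, was left out. Members were chosen on their measured level, a TPM of at least 1 in at least 3 of the 6 libraries. This gave 253 genes on 20 chromosomes, 67 of 89 listed on chromosome 7 and 186 of 274 listed elsewhere, among 11257 genes of any kind that reached the same level and 25124 listed. The division by chromosome was proposed after a shift of chromosome 7 had been seen in these data, so the 2 sets are described side by side and no test between them is given.

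The libraries came from RAW264.7, a mouse macrophage-like tumour line transformed by Abelson leukaemia virus, grown without treatment and at fewer than 15 passages. Of the 6 libraries, 3 are labelled knockout of E4BP4, a bZIP transcription factor encoded by Nfil3 that binds D-box elements, and 3 are labelled control, with no other genotype or agent given for either group. RNA was polyadenylated RNA selected from total RNA, and the library kit named does not mark strand. The sources used here do not say how E4BP4 was disrupted, whether the knockout cells were a single clone, or whether a replicate is a culture of its own. A p-value below therefore reflects the scatter of these 6 libraries, part of which may be technical.

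Most Zfp genes encode proteins with arrays of C2H2 zinc fingers, small folds in which a zinc ion is held by cysteine and histidine and which read DNA a few bases at a time. Many also carry a KRAB domain, which recruits the corepressor TRIM28 (KAP1) and through it the histone H3 lysine 9 methyltransferase SETDB1, and which is best known for silencing transposable elements. Such genes arose by tandem duplication and lie in clusters, several of them on mouse chromosome 7. Zfp genes without a KRAB domain are a mixed set that includes transcription activators, RNA-binding proteins and ubiquitin ligases.

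Whole reads recovered from the TPM values came to 15615639 to 18110568 in the controls and 18373052 to 19867732 in the libraries labelled knockout. All 10 macrophage markers examined reached the level for testing, with a summed TPM of 3514 to 3847 in the controls and 4659 to 4804 in the libraries labelled knockout. The sum does not stand for each marker: 3 rose (Lyz2, Cd14 and Spi1), 5 fell (Csf1r, Fcgr1, Itgam, Adgre1 and Cd68) and 2 did not pass, with a median log2 fold change of −0.15. Summed markers of T cells, B cells, epithelium and erythroid cells stayed at or under 0.303 TPM in every library, and those of fibroblasts at or under 1.08 TPM. Nfil3, the targeted gene, went against its label: it measured 29.5, 29.9 and 31.0 TPM in the controls and 104.6, 104.0 and 99.8 TPM in the libraries labelled knockout, a ratio of 3.41 (limma adjusted p = 4.96e-09). A value for the whole gene does not show an edit inside it, so the groups are called by their labels and every direction below rests on them. In a bulk library, fewer cells that express a gene and less RNA per cell cannot be told apart.

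Zfp genes on chromosome 7 were mostly higher in the libraries labelled knockout, and so were the other genes of that chromosome. Of the 67 members there, 38 rose, 2 fell and 27 did not pass in limma (Benjamini-Hochberg adjusted p under 0.05 over all 11257 genes), that is 56.7% higher and 2.99% lower. Among the 811 other tested genes of chromosome 7, 59.4% were higher and 8.75% lower. Over all tested genes 26.7% were higher and 23.4% lower, 50.1% in either direction. The share of chromosome 7 Zfp genes that rose was thus near that of their chromosome. Over genes of all levels it is not a result about zinc finger genes. Those other genes were better expressed, at a median control level of 16.3 TPM against 3.96 TPM. At a mean TPM from 1 to 10, 51.8% of the members there and 38.5% of those other genes rose. That difference was not tested. Of the 186 members elsewhere, 43 rose, 20 fell and 123 did not pass (23.1% and 10.8%), against 23.9% higher and 25% lower among the 10193 other tested genes outside chromosome 7.

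In size, too, both sets of chromosome 7 genes stood above the sets elsewhere. The median log2 fold change (libraries labelled knockout minus controls, on log2(TPM + 1), which understates low genes) was 0.28 for the chromosome 7 members, with a middle range of 0.13 to 0.42 and extremes of −0.35 and 1.92. It was 0.24 for the other genes of chromosome 7, 0.07 for the members elsewhere and −0.00023 for the other genes elsewhere. Of the 67 chromosome 7 members 61 lay above 0, and 37 lay above the median of the other genes of their chromosome. As ratios of mean TPM, the medians were 1.28-fold for the chromosome 7 members, 1.20-fold for the other genes there and 1.05-fold for the members elsewhere. Few members moved far: 14 of 67 on chromosome 7 were at least 1.5-fold higher and 2 at least 2-fold, and elsewhere 10 of 186 were at least 1.5-fold higher, 2 at least 2-fold higher and 5 at least 1.5-fold lower.

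The shift was seen in each library labelled knockout. The summed TPM of the 67 chromosome 7 members was 398.9, 409.0 and 408.8 in the controls and 514.7, 507.2 and 514.1 in the libraries labelled knockout, or 405.6 ± 5.80 against 512.0 ± 4.17 (SD, n = 3 each), 1.26-fold higher. The groups did not overlap, and the gap of the means was many times the spread within either. The summed TPM of the 186 members elsewhere was 1646, 1708 and 1660 in the controls and 1774, 1747 and 1786 in the libraries labelled knockout, 1.06-fold higher, again without overlap. The sums over the other genes were 1.20-fold higher on chromosome 7 and 0.982-fold elsewhere. Of single genes, 44 of the 67 chromosome 7 members had all 3 libraries labelled knockout above all 3 controls (65.7%) and 3 had them all below. Over all tested genes such separation was seen in 31.3% upward and 27.2% downward. Of the 811 other tested genes of chromosome 7 it was 508 upward and 83 downward. Upward separation was thus not particular to the Zfp genes of that chromosome. Among the members elsewhere it was 61 upward and 31 downward, 32.8% and 16.7% of 186.

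**Figure D1:**
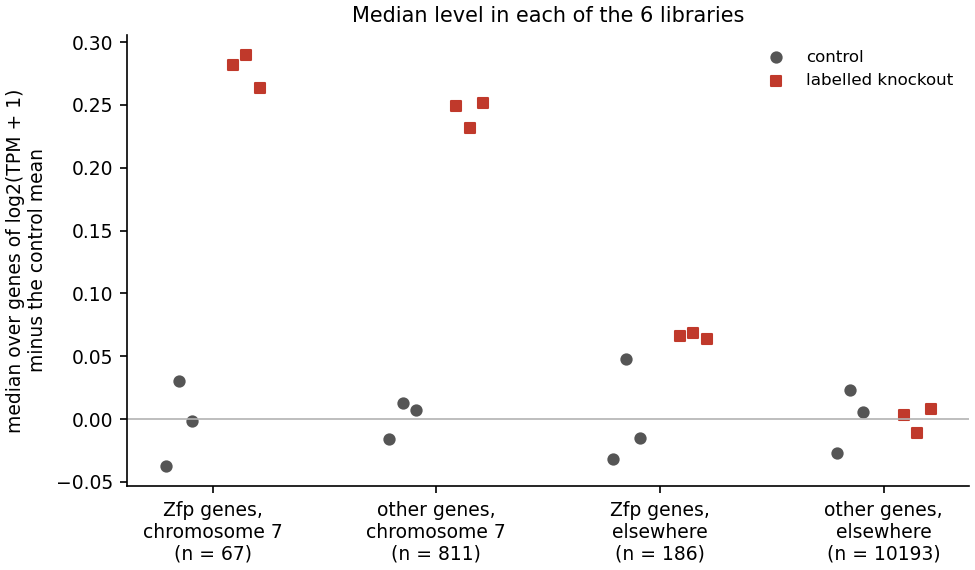
Each point is 1 library, and the y axis is the median over the genes of a set of log2(TPM + 1) minus the mean of the 3 controls. Both chromosome 7 sets lie at 0.23 to 0.29 in the libraries labelled knockout, the Zfp genes elsewhere at 0.06 to 0.07, and the other genes elsewhere within the range of the controls.

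On the 19 other chromosomes that hold a member, the median of the other tested genes ran from −0.05 (chromosome 5) to 0.06 (chromosome 18), and the Zfp genes moved in both directions. Chromosome 17, with 33 members the next largest set, had 11 higher and 1 lower at a median of 0.12, where 28.3% of its other genes were higher and 22.4% lower. Chromosome 13 had 2 of 22 members higher and 2 lower at a median of 0.03, beside 22.9% and 18.7% of its other genes. Chromosome 8 had 4 of 20 members higher and 0 lower at a median of 0.03, beside 17.9% and 25.9% of its other genes. Chromosome 2 had 3 of 10 members higher and 5 lower, beside 28.7% and 28.1% of its other genes. These sets are small, and differences between chromosomes were not tested.

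**Figure D2:**
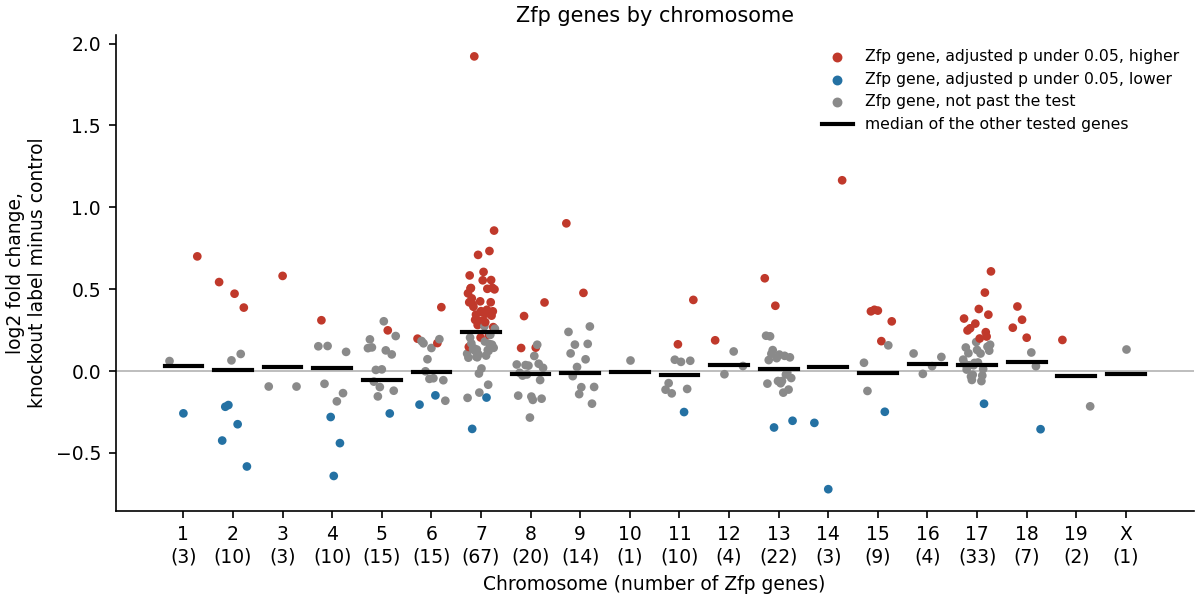
Each point is 1 of the 253 Zfp genes, placed by chromosome (x axis, with the number of genes) and log2 fold change (y axis), and black bars are the median of the other tested genes of that chromosome. The bar of chromosome 7 stands at 0.24 and the others between −0.05 and 0.06, and on chromosome 7 the Zfp genes spread around the raised bar.

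Most members were expressed at low levels: the mean TPM over the 6 libraries had a median of 4.77 on chromosome 7 (0.879 to 39.7) and 6.07 elsewhere (0.956 to 129). Among genes of mean TPM from 1 to 10, 29 of 56 chromosome 7 members rose and 1 fell (51.8% and 1.79%), with a median log2 fold change of 0.27. In the same range 111 of 288 other chromosome 7 genes rose and 31 fell (38.5% and 10.8%), with a median of 0.16. Of the members elsewhere in that range 26 of 137 rose and 11 fell, with a median of 0.07, beside 674 and 708 of 3446 other genes elsewhere.

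Along chromosome 7 the members fell into 13 clusters, taking genes whose starts lie within 1 Mb of the next, and the 2 largest differences stood in 1 of them. That cluster holds 14 Zfp genes from 29768552 to 30169741 on chromosome 7 (mm10). In it 12 of 14 genes rose, 0 fell, and all 14 had the libraries labelled knockout above the controls, with a median log2 fold change of 0.47. The 53 other tested genes within 1 Mb of the cluster had a median of 0.20, with 27 higher and 6 lower. The 53 chromosome 7 members outside it had a median of 0.22, with 26 higher (49.1%) and 2 lower. Because the cluster was picked out after its values were seen, this is a description.

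Zfp420, whose human ortholog encodes the p53-associated repressor APAK, rose most of all members. It lies on the plus strand of chromosome 7 from 29860012 to 29877296, and its coding sequence holds 19 C2H2 fingers by pattern. It measured 1.89, 2.11 and 2.03 TPM in the controls and 10.3, 10.8 and 10.1 TPM in the libraries labelled knockout, from about 94.3 and 537.7 recovered reads per library. All 3 libraries labelled knockout stood at 10.1 TPM or more and all controls at 2.11 TPM or less, so the groups were far apart. The ratio of means was 5.18 (2.01 ± 0.111 against 10.4 ± 0.340 TPM, SD, n = 3 each; log2 fold change 1.92, SE 0.0663, limma adjusted p = 5.41e-08). Its neighbour Zfp940, a KRAB zinc finger gene, starts 6364 bases away on the minus strand (29843936 to 29853648) and is transcribed in the opposite direction. Zfp940 measured 1.75, 1.87 and 1.48 TPM in the controls and 4.12, 3.75 and 3.79 TPM in the libraries labelled knockout, 2.29-fold higher (log2 fold change 0.86, limma adjusted p = 4.01e-05). Reads of Gm26554, which overlaps Zfp940 on the other strand, cannot be told apart from it in these libraries.

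The start regions of this pair and of Zfp146, the most abundant member of the cluster, are shown because the 3 genes rose in 1 cluster by very different amounts. Each is the RefSeq window of the GRCm38.p6 build, 250 bases before to 50 after the start, 5′ to 3′ on the gene's strand, with CG dinucleotides in capitals. The windows are chr7:29859762-29860061 (plus strand) for Zfp420, chr7:29853599-29853898 (minus strand) for Zfp940 and chr7:30169692-30169991 (minus strand) for Zfp146.
Zfp420: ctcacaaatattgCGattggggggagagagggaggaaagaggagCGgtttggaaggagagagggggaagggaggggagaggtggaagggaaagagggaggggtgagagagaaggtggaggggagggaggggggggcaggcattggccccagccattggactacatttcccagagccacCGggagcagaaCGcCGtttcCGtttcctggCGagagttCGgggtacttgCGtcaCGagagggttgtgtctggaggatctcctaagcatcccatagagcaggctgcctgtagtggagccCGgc
Zfp940: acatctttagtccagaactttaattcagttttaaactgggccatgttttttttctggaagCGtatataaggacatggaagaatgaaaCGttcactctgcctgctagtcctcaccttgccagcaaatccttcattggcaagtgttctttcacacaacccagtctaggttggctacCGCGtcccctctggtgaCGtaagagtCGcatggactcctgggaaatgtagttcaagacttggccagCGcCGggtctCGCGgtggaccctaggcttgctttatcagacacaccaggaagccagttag
Zfp146: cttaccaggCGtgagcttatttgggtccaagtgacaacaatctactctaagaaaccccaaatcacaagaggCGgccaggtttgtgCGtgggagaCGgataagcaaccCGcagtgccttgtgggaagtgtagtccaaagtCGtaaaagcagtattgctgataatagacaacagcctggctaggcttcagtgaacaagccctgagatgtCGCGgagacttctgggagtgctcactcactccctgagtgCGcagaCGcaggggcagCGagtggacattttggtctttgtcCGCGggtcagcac
They hold 11, 10 and 13 CG dinucleotides at 60.7%, 48.7% and 53.3% G and C. Of all members 211 had such a window, with a median of 16 CG dinucleotides, and the 8425 other tested genes with one had a median of 22. The median was 16 on chromosome 7 and 16 elsewhere, the same value for both sets. The D-box letters TTACGTAA (the same on both strands) and TTATGTAA (TTACATAA on the other strand), which cannot overlap at the same place, were found in 0 of the 211 member windows and in 45 of 8636 windows of all tested genes (0.521%). No match says only that these letters are not in these windows.

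The other genes of the cluster moved by less. Zfp568, a KRAB repressor known for silencing a placental transcript of the growth factor gene Igf2, lies at 29983955 to 30028282 on chromosome 7. It measured 5.65, 5.83 and 5.58 TPM in the controls and 10.4, 9.23 and 10.2 TPM in the libraries labelled knockout, 1.75-fold higher without overlap (log2 fold change 0.71, limma adjusted p = 1.49e-05). Zfp260, which encodes a partner of the heart factor GATA4, measured 13.2, 13.8 and 13.6 TPM in the controls and 19.1, 19.2 and 20.7 TPM in the libraries labelled knockout, 1.45-fold higher. Zfp146, which encodes the short finger protein OZF, measured 33.3, 35.1 and 33.0 TPM in the controls and 46.0, 45.2 and 45.4 TPM in the libraries labelled knockout, 1.35-fold higher (limma adjusted p = 2.50e-05). In each of these 3 genes the lowest library labelled knockout stood above the highest control. Zfp84, Zfp30, Zfp27 and Zfp74 rose 1.52-fold, 1.54-fold, 1.53-fold and 1.56-fold, and Zfp790, Zfp383 and Zfp566 rose 1.33-fold, 1.39-fold and 1.27-fold. Zfp82 and Zfp382 did not pass, at 1.15-fold and 1.12-fold with limma adjusted p of 0.110 each.

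**Figure D3:**
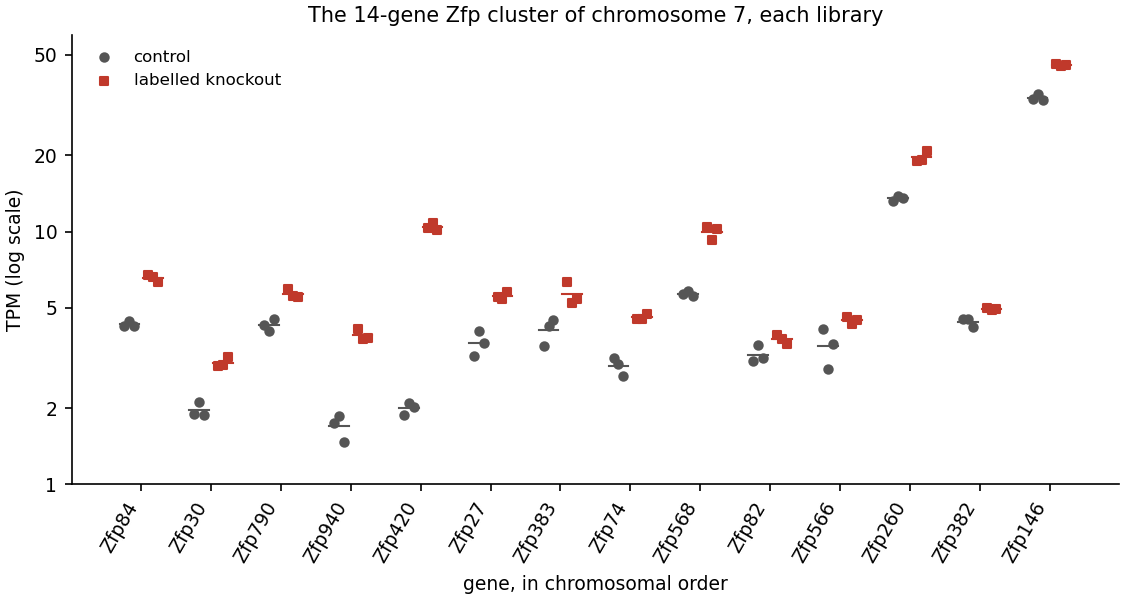
TPM (y axis, log scale) of the 14 Zfp genes of the cluster, in chromosomal order, with 1 point per library and bars at the group means. Zfp420 goes from about 2.01 to 10.4 TPM and Zfp940 from 1.70 to 3.88 TPM, while the other 12 genes differ by 1.12-fold to 1.75-fold.

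Outside that cluster the chromosome 7 members that rose most on log2(TPM + 1) lay in 5 other clusters. That scale shrinks low genes, and as ratios of mean TPM Zfp128 (1.75-fold higher) and Zfp619 (1.72-fold higher), with control means of 1.05 and 0.646 TPM, stood above all but the first of those named here. Zfp772 (7202122 to 7209998), a KRAB zinc finger gene, measured 2.83, 3.13 and 3.08 TPM in the controls and 5.77, 5.40 and 5.84 TPM in the libraries labelled knockout, 1.88-fold higher (log2 fold change 0.73, limma adjusted p = 2.71e-05). Of the 50-base stretches of its transcript 6.89% also occur in another gene, so part of its reads could have been assigned either way. Zfp646 (127877701 to 127885996), with 27 fingers, measured 6.27, 6.88 and 6.44 TPM in the controls and 10.2, 10.2 and 11.0 TPM in the libraries labelled knockout, 1.60-fold higher, and it overlaps Prss53 on the other strand. Zfp180, Zfp788 and Zfp628 were 1.55-fold, 1.59-fold and 1.60-fold higher, from control means of 9.50, 3.96 and 3.73 TPM. In all 7 the groups did not overlap. For Zfp619 this was fixed by the rule, since it reached a TPM of 1 only in the libraries labelled knockout. By contrast, in the cluster from 24081897 to 25227495 Zfp180 was the 1 gene of 8 that rose, and the median of the 8 was 0.13, below the 0.24 of the 32 other genes around it.

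**Figure D4:**
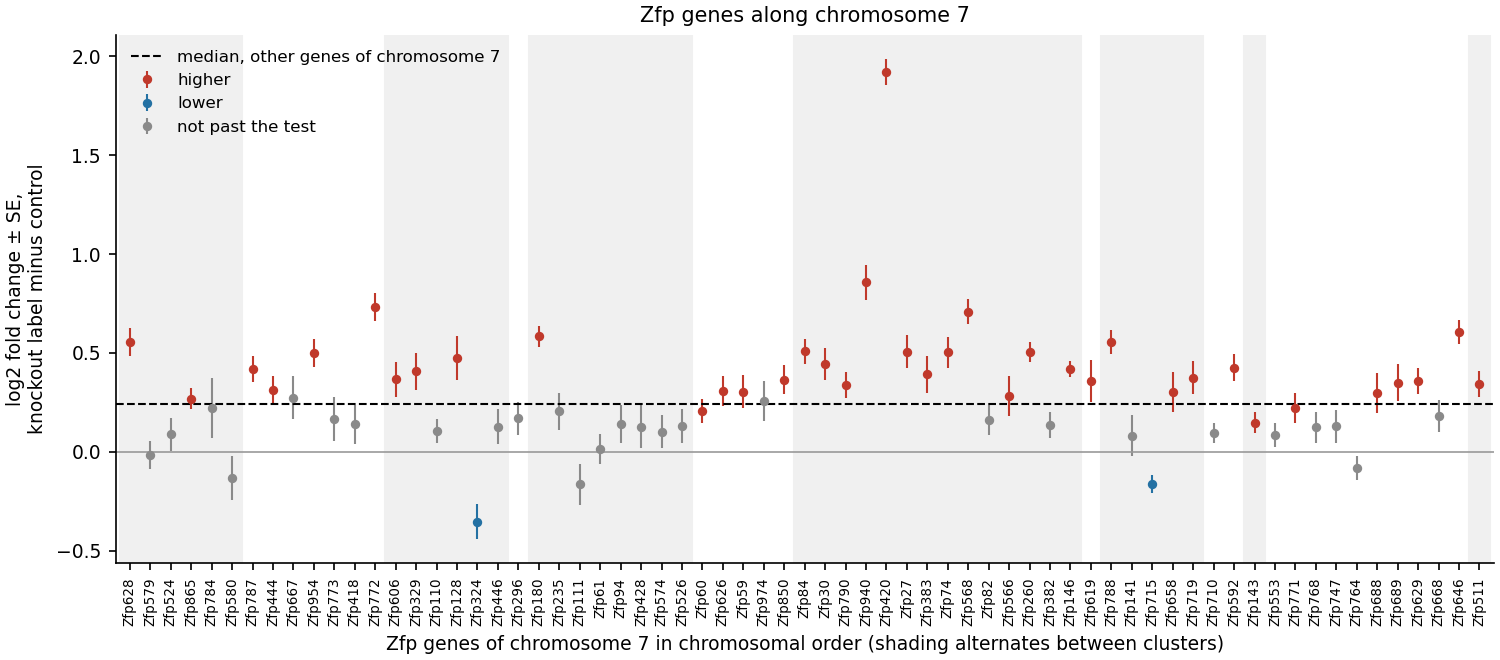
log2 fold change with its standard error (y axis) of the 67 Zfp genes in chromosomal order (x axis, evenly spaced), with shading that alternates between the 13 clusters and a dashed line at 0.24, the median of the other genes of chromosome 7. Zfp420 at 1.92 and Zfp940 at 0.86 stand above the rest, and Zfp324 at −0.35 and Zfp715 at −0.16 are the 2 genes that fell.

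The 2 chromosome 7 members that fell were both KRAB zinc finger genes. Zfp324 (12965838 to 12973822) measured 7.06, 6.85 and 6.25 TPM in the controls and 4.62, 4.70 and 5.87 TPM in the libraries labelled knockout. Replicate 3 of the libraries labelled knockout lay closest to the controls, but below all of them, and the mean was 1.33-fold lower (log2 fold change −0.35, SE 0.0888, limma adjusted p = 0.00858). Zfp715 (43296523 to 43313300), among the better expressed members, measured 22.7, 23.4 and 23.0 TPM in the controls and 19.7, 20.5 and 21.3 TPM in the libraries labelled knockout, 1.12-fold lower (limma adjusted p = 0.0144). Without replicate 1 of the libraries labelled knockout Zfp715 did not pass (limma adjusted p = 0.0721). The smallest rises that passed were those of Zfp143, an activator of small nuclear RNA and mRNA promoters, at 1.12-fold (limma adjusted p = 0.0462) and Zfp60 at 1.18-fold (limma adjusted p = 0.0196). Zfp143 did not pass without control replicate 1 or 2 or without any 1 of the libraries labelled knockout (limma adjusted p of 0.0526 to 0.133), nor with limma-voom (0.0546), on the deposited log2 values (0.0575), with the replicate block (0.0771), without a filter on low values (0.0768) or in the authors' deposited table (0.179). Zfp60 did not pass without control replicate 1 (limma adjusted p = 0.0521) or replicate 3 of the libraries labelled knockout (0.0694), nor in the authors' deposited table (adjusted p = 0.0528).

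Taking the shift of the chromosome off left fewer members higher and more members lower. When 0.24, the median log2 fold change of the other chromosome 7 genes, was subtracted from every chromosome 7 gene in the libraries labelled knockout before the fit, 15 of the 67 members were higher and 8 lower (22.4% and 11.9%), with a median of 0.04. The other genes of chromosome 7 were then 25% higher and 24% lower. Of the 15 higher members, 8 belonged to the 14-gene cluster and 7 to the rest of the chromosome. Zfp420 stood at a log2 fold change of 1.68 and Zfp940 at 0.62. The 8 lower members were Zfp324, Zfp715, Zfp710, Zfp111, Zfp579, Zfp764, Zfp580 and Zfp61. The 0.24 came from genes with a median control level of 16.3 TPM, against 3.96 TPM for the members, and log2(TPM + 1) shrinks low genes. Other chromosome 7 genes of mean TPM from 1 to 10 had a median of 0.16. The subtraction may therefore take too much off low members. It was chosen after seeing the data, and what shifts the chromosome was not tested.

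Members that share a protein architecture were compared within chromosome 7. A KRAB pattern was found in the coding sequence of 36 of the 67 members, of which 22 rose (61.1%) and 2 fell at a median of 0.30, and in the 31 without it 16 rose (51.6%) and 0 fell at a median of 0.22. Of 42 members with at least 10 fingers 27 rose (64.3%) and 1 fell, with a median of 0.34, and of 25 with fewer 11 rose (44%) and 1 fell, with a median of 0.16. These counts stand beside 59.4% higher and 8.75% lower among the other genes of chromosome 7, where the median was 0.24. Elsewhere 16 of 94 members with the KRAB pattern rose and 5 fell, with a median of 0.07. Of 90 without it 26 rose and 15 fell, with a median of 0.06. The share that rose was there lower with the pattern than without it, opposite to chromosome 7. Of 93 members elsewhere with at least 10 fingers 22 rose and 4 fell, with a median of 0.08. Of 91 with fewer 20 rose and 16 fell, with a median of 0.04. No test of these differences is given, and the pattern, which found none in Zfp420, can miss divergent domains. Of 59 chromosome 7 members with at most 5% of their 50-base stretches in another gene, 36 rose (61.0%) and 2 fell, and of the other 8, 2 rose. Of 49 members with no annotated gene on the opposite strand 29 rose (59.2%) and 2 fell.

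Outside chromosome 7 the members that rose most on log2(TPM + 1) act in varied ways. Zfp503 (Nolz1), a repressor of developmental genes without classical finger arrays, lies on chromosome 14 from 21983962 to 21989601. It measured 4.29, 4.39 and 4.50 TPM in the controls and 11.4, 10.7 and 11.2 TPM in the libraries labelled knockout, 2.53-fold higher (log2 fold change 1.16, limma adjusted p = 4.01e-07). Zfp105 on chromosome 9 (122923078 to 122931028) measured 0.795, 0.991 and 1.13 TPM in the controls and 2.60, 3.04 and 2.43 TPM in the libraries labelled knockout, 2.76-fold higher from about 28.3 recovered reads per control. Zfp451, which encodes a transcriptional cofactor, lies on chromosome 1 (33761541 to 33814595) and rose from 11.2 ± 1.27 to 18.8 ± 0.721 TPM (SD, n = 3 each), 1.68-fold. In these 3 genes the groups did not overlap. Zfp639 and Zfp995 were 1.51-fold and 1.73-fold higher, the latter with 20.9% of its 50-base stretches found in another gene. Zfp106, an RNA-binding protein gene, and Zfp598, which encodes the ubiquitin ligase that acts on collided ribosomes, were 1.47-fold and 1.23-fold higher, and were chosen for naming after their values were seen.

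On log2(TPM + 1) Zfp395 fell furthest of the members elsewhere, and as a ratio of mean TPM Zfp618 did. Zfp395 lies on chromosome 14 (65358676 to 65398930) and measured 9.40, 10.5 and 9.97 TPM in the controls and 5.83, 5.51 and 5.56 TPM in the libraries labelled knockout, 1.76-fold lower (log2 fold change −0.72, limma adjusted p = 1.17e-05). Zfp618 on chromosome 4 (62965567 to 63139706) measured 1.70, 2.07 and 1.97 TPM in the controls and 0.922, 0.811 and 0.866 TPM in the libraries labelled knockout, 2.21-fold lower. It reached the level for members only in the controls, so its fall is partly given by the rule. Zfp971, Zfp691 and Zfp120 were 1.58-fold, 1.50-fold and 1.36-fold lower, and 42.4% of the 50-base stretches of Zfp971 occur in another gene. Zfp281, a regulator of pluripotent cells, was 1.21-fold lower and was likewise named after its value was seen. In all 6 of these genes the libraries labelled knockout stood below the controls, which for Zfp618 was fixed by the rule.

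The most abundant members differed by 1.35-fold or less. Zfp207 (BuGZ), which loads the checkpoint protein BUB3 at kinetochores, had the highest level, with 143.4, 131.4 and 128.3 TPM in the controls and 121.6, 124.6 and 125.8 TPM in the libraries labelled knockout. The groups did not overlap, but the 1.08-fold lower mean did not pass in limma (adjusted p = 0.0628). With limma-voom on recovered reads (adjusted p = 0.0172) and in the authors' deposited table (adjusted p = 0.0353) it passed. Zfp91, a ubiquitin ligase gene, rose from 62.5 ± 3.24 to 71.4 ± 1.02 TPM and Zfp622, which acts in the maturation of the large ribosomal subunit, from 50.2 ± 2.48 to 65.0 ± 2.65 TPM (SD, n = 3 each). On chromosome 7, besides Zfp146, Zfp710 measured 31.3 ± 1.17 against 33.5 ± 1.62 TPM with overlapping groups and did not pass (limma adjusted p = 0.137), and Zfp511 rose 1.28-fold from 23.8 ± 2.11 TPM. Zfp511 overlaps Tubgcp2 on the other strand.

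The level that admitted members left some out by little and admitted a few through 1 group. Zfp619 on chromosome 7 (0.714, 0.554 and 0.671 TPM in the controls, 1.02, 1.18 and 1.13 TPM in the libraries labelled knockout), Zfp493 on chromosome 13 and Zfp964 on chromosome 8 reached a TPM of 1 in the libraries labelled knockout and in no control, so their difference is partly given by the rule. Zfp619 did not pass without control replicate 2 (limma adjusted p = 0.0559) or replicate 2 or 3 of the libraries labelled knockout (0.0651 and 0.0561), and Zfp964 not without control replicate 3 (0.0621) or replicate 1 or 3 of the libraries labelled knockout (0.0553 and 0.0692). Zfp618 was the 1 member admitted by the controls alone, and its fall is likewise partly given by the rule. For Zfp619, Zfp493, Zfp964 and Zfp618 the lack of overlap between the groups is fixed by the rule. Just outside were Zfp438, Zfp763 and Zfp286, whose level in the third library from the top, the one the rule reads, stood at 0.991, 0.979 and 0.972 TPM. Of the 110 symbols that did not reach the level, 22 lie on chromosome 7 and 88 elsewhere, and 10 were listed at 0 in all 6 libraries.

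The partners through which KRAB zinc finger proteins silence DNA showed no common direction. Of 42 tested genes of the silencing machinery 10 rose, 7 fell and 25 did not pass, with a median log2 fold change of −0.02, beside 26.7% higher and 23.4% lower over all genes. Without control replicate 2, 11 of the list passed in place of 17. Trim28 itself lies on chromosome 7 (13024152 to 13031032) and measured 131.6, 144.8 and 140.3 TPM in the controls and 162.0, 158.9 and 165.3 TPM in the libraries labelled knockout, 1.17-fold higher without overlap (log2 fold change 0.22, limma adjusted p = 0.00186). That is close to the 0.24 of its chromosome, and with the shift taken off the value was −0.02 and did not pass (limma adjusted p = 0.752). Setdb1, on chromosome 3, measured 26.0 ± 0.592 against 25.5 ± 0.897 TPM and did not pass (limma adjusted p = 0.627). Tasor, which encodes a subunit of the HUSH silencing complex, rose 1.31-fold. Cbx5 and Cbx1, which encode heterochromatin proteins HP1α and HP1β, fell, with log2 fold changes of −0.23 and −0.13, and Cbx3, which encodes HP1γ, did not pass at −0.03 (limma adjusted p = 0.714).

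C2H2 genes under other names also moved both ways. Of 60 tested genes named Zbtb, Zscan or Zkscan with a number, or listed singly, 20 rose, 7 fell and 33 did not pass, with a median log2 fold change of 0.10, beside 26.7% higher, 23.4% lower and a median of 0.02 over all tested genes. Zbtb21 on chromosome 16 rose from 6.45 ± 0.244 to 9.85 ± 0.0425 TPM (SD, n = 3 each). Zbtb16 (PLZF), a BTB zinc finger repressor gene on chromosome 9, fell 1.45-fold, and Prdm9, the histone methyltransferase gene that places meiotic crossovers, fell 1.46-fold with an adjusted p of 0.0280 in limma. Prdm9 did not pass without control replicate 2 (limma adjusted p = 0.0662) or replicate 1 or 3 of the libraries labelled knockout (0.0920 and 0.0552). Of the 5 tested on chromosome 7, Zbtb45 and Zkscan2 rose, Zbtb32 and Zscan22 fell, with log2 fold changes of 0.20, 0.53, −0.37 and −0.28, and 1 did not pass. Zkscan2 reached a TPM of 1 only in the libraries labelled knockout, so its rise is partly given by the level for testing. In a list of nucleic acid sensing, retroelement restriction and interferon genes, 11 of 13 tested fell and 1 rose. Their median log2 fold change was −0.67, and over all tested genes 23.4% were lower and 26.7% higher. Irf7, the list's 1 member on chromosome 7, fell from 13.0 to 4.17 TPM, against the direction of its chromosome, and Zc3hav1, the zinc finger antiviral protein gene, was the 1 that rose, from 44.8 to 59.9 TPM. Retroelement transcripts were not analysed here. The low level of interferon-induced genes was known from these data when the list was chosen, so it is no independent evidence.

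The authors' deposited table, read with TG in its header as the group labelled knockout, gave similar counts for the members. In it 34 of 66 chromosome 7 members with a value were higher and 2 lower at an adjusted p under 0.05, with a median log2 fold change of 0.34. Elsewhere 31 of 178 were higher and 20 lower, with a median of 0.05. Of all tested genes in the authors' deposited table, 23.3% were higher and 22.7% lower. Its value for Zfp420 was 2.36 and for Zfp940 1.17, and limma-voom on recovered reads gave 2.35 and 1.16. These exceed the values on log2(TPM + 1), where the added 1 shrinks genes of a few TPM. Limma-voom called 42 chromosome 7 members higher and 3 lower, and 48 and 29 elsewhere, beside 26.9% higher and 27.9% lower over all tested genes (6169 genes called). The share of the other chromosome 7 genes is not given for either method, so these counts say nothing particular to Zfp genes.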

How the data were processed

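Per the file headers, the authors deposited TPM for 25124 symbols, each with 1 RefSeq transcript on mm10, and a table of stabilized log2 values per library with the log2 fold change, p-value and adjusted p-value of their own comparison. The transform behind the log2 values, the counting of reads and the handling of reads that match several genes are not stated in the sources. The build mm10 and the tools STAR 2.7.5a, HOMER 4.11.1, bcl2fastq and DESeq2 come from the submitters' processing notes, which give them no role. The listed TPM values of a library summed to 551257 to 556083, so the scaling covered more transcripts than are listed.

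TPM was used as deposited. Genes with a TPM of at least 1 in at least 3 libraries were compared on log2(TPM + 1) with limma 3.58.1 in R 4.3.3 (mean-variance trend, group as the only term, two-sided, all 11257 genes adjusted together by Benjamini-Hochberg, threshold 0.05). Fold values are ratios of mean TPM. The test written for counts was not needed, since no counts are listed. Each TPM value times transcript length, divided by 1 step per library, came within 0.1 of a whole number for 100% of the low values checked. The reads so recovered served for depth, for limma-voom as an alternative, and to compare replicates (chi-square per degree of freedom of 1.81 to 6.01, so no library was taken as a duplicate). The script was tested on simulated data.

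The members, the division by chromosome and the gene lists were chosen with earlier results of these data known. Genes named were, on chromosome 7, the 8 highest and 4 lowest log2 fold changes past the test with groups apart, the 5 highest and 5 lowest elsewhere, the 3 most abundant in each set, the 3 on either side of the TPM level, Trim28, Setdb1 and the 2 largest changes of the silencing list (of which the larger is counted but not reported here), the 2 highest and 2 lowest of other C2H2 genes, and Nfil3. Other genes named, such as the rest of the 14-gene cluster, were chosen after their values were seen. Fingers and the KRAB pattern were searched in GENCODE M21 coding sequences (251 of 253 members, 228 by RefSeq accession), 50-base stretches against all its transcripts, and promoter letters in RefSeq windows of GRCm38.p6, the assembly of mm10. Alternatives were the pseudocount, the TPM level, 2 scalings, the deposited log2 values, recovered reads, a replicate block, and each library left out.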

Additional observations from a re-analysis of the deposited data

How the results depend on the processing

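Of 615 values of the 40 named genes under an alternative, 578 kept their direction and their side of the threshold, 28 lost the call, 5 gained it (all of Zfp207) and 4 changed sign. All 4 were on chromosome 7 with its shift taken off: Zfp143 (−0.092), Zfp60 (−0.035), Zfp710 (−0.14) and Trim28 (−0.018). The median log2 fold change of the chromosome 7 members (0.28) was 0.35 with a pseudocount of 0.1, 0.34 at a TPM of at least 5, 0.34 with limma-voom, 0.17 on the deposited log2 values, 0.17 without a filter on low values (88 symbols) and 0.042 with the shift taken off. With limma-voom the median of the other genes of chromosome 7 was 0.24. For the members elsewhere (0.07) the median was 0.033 without a filter and 0.031 on the deposited log2 values. At a TPM of at least 5, 25 of 35 chromosome 7 members rose, with 5035 genes of any kind called in either direction. The share of the other chromosome 7 genes at that level is not given here, so this count says nothing particular to Zfp genes. With the shift taken off 15 chromosome 7 members rose and 8 fell. With 1 library left out, 31 to 35 chromosome 7 members rose and 1 to 3 fell, and 34 to 45 rose and 15 to 20 fell elsewhere. Over all tested genes 4740 to 5442 were then called, against 5639 in the main fit. The silencing list had 11 to 15 genes called, the fewest without control replicate 2. The fall count of 1 came without replicate 1 of the libraries labelled knockout. The replicate block gave 37 higher and 2 lower on chromosome 7 and 38 and 18 elsewhere, with 5297 genes of any kind called. For the block and the left-out libraries, too, the share of the other chromosome 7 genes is not given. No pairing by number was seen: deviations of same-numbered libraries correlated at −0.01, −0.06 and 0.00, and no control correlated best with its own number. Such values cannot exclude that libraries were handled in pairs. Depth limits the low members: the lowest control held 54 reads of Zfp940, 25 of Zfp105 and 12 of Zfp964.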
